A study of Mus musculus with 16 samples.

Results

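The genes described here encode proteins that fold tubulin or modify it after folding, and 38 of the 53801 genes in the count table belong to them. They were taken by gene symbol for the function of the protein, with earlier results of these data known, and comprise 7 subunits of the CCT ring, 6 of prefoldin, 6 tubulin cofactors, 4 proteins of the tyrosination cycle, 9 tubulin tyrosine ligase-like enzymes, 5 deglutamylases and 1 acetyltransferase. Both cortex and striatum were taken at postnatal day 10 and sequenced in 16 mRNA libraries from 9 mice, to follow what loss of the HAT cofactor Trrap does to transcription in forebrain neurons. All mice were on a mixed C57BL6/J-129sv background and all carried the Camk2-Cre transgene, which the study's methods give as driving deletion in glutamatergic neurons of the forebrain. The transgenic line named there is Tg(Camk2a-cre/ERT2)2Gsc, whose name denotes an inducible Cre, and whether these mice received an inducer was not established from the sources used here. Control mice had 1 floxed and 1 wild-type Trrap allele (Trrap Fl/+), and Trrap-FBΔ mice had 2 floxed alleles (Trrap Fl/Fl). Each tissue had 4 control and 4 Trrap-FBΔ libraries, with 2 females among the control cortices, 1 among the control striata and 3 in each Trrap-FBΔ group. Values below are TMM-scaled CPM (reads of a gene relative to all counted reads), and they are listed in the order of mice 55, 58, 63 and 64 for the control cortex, 58, 63, 64 and 65 for the control striatum, and 57, 59, 60 and 61 for both Trrap-FBΔ tissues.

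Newly made α- and β-tubulin cannot fold unaided. Prefoldin hands the nascent chain to the CCT ring, a hetero-oligomeric ATP-driven chamber, and the cofactors Tbca to Tbce then bring α- and β-tubulin together into a dimer. Once in microtubules, tubulin is marked on its tail: vasohibins bound to Svbp remove the last tyrosine of α-tubulin, Ttl puts it back on the free dimer, Ttll enzymes add glutamate or glycine chains, the deglutamylases of the Agtpbp1 and Agbl family shorten them, and Atat1 acetylates a lysine in the lumen. Neurons carry heavily modified microtubules, and loss of Agtpbp1 is the cause of the Purkinje cell degeneration of the pcd mouse.

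Between 28743866 and 48761429 reads were counted per library, and the 38 genes took 0.273% to 0.292% of them. Trrap itself lay at 136 to 173 CPM in the control cortices and at 121 to 146 CPM in the libraries labelled Trrap-FBΔ, and the groups overlapped (log2 fold change -0.18, edgeR adjusted p = 0.0826). In the striatum the difference was -0.04 (edgeR adjusted p = 0.519). These counts cover the whole gene and all cells of the tissue, so they do not isolate the deleted part, and the groups follow the labels. The paper itself reports that Trrap was efficiently deleted by this age, citing western blots of the forebrain and qPCR. Of the markers of cortical excitatory neurons, 5 of 5 were lower in the control striatum than in the control cortex, with summed levels of 290 to 508 against 1370 to 1770 CPM. The markers of striatal projection neurons did not separate the tissues. None of the 7 passed the test in controls (edgeR), and their sum was 237 to 662 CPM in the control cortices, 178 CPM in the control striatum of mouse 58, 1050 CPM in that of mouse 64 and 411 and 441 CPM in the others. The member counts were therefore also taken without the 2 control striata at the ends of this range, and without the 2 control cortices with the highest sums (mice 58 and 63, 635 and 662 CPM).

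In the control cortex the members differed widely in level when compared per kilobase of exon. Highest on this scale were subunits of the CCT ring, with Cct2 at 75.1 ± 1.85 (SD, n = 4), Cct5 at 71.5 ± 3.26 and Cct8 at 62.4 ± 2.17 CPM per kb. The cofactor Tbcb, which works on α-tubulin, followed at 57.98 ± 4.89 CPM per kb, and 2 prefoldin subunits, Pfdn5 at 53.5 ± 4.45 and Pfdn1 at 52.7 ± 3.02, lay within each other's spread. Among the modifying enzymes Ttl was highest per kilobase at 32.2 ± 1.75 CPM per kb, ahead of the glutamylase Ttll7 at 28.6 ± 2.16 and Vash1 at 23.1 ± 0.825. Atat1 followed at 20.1 ± 0.766, then Ttll1 at 16.8 ± 0.525 and Agtpbp1 at 16.4 ± 0.77, the last pair within each other's spread. The length used is that of all annotated exons of a gene, not of the transcripts expressed, and is 21824 bases for Agtpbp1. Without division by length Agtpbp1 was highest at 358.9 CPM, ahead of Ttll7 at 236.5 and Ttl at 191.4 CPM, so the order depends on the scale. The detyrosinating paralogue of Vash1, Vash2, lay at 3.80 ± 0.644 CPM per kb. At the other end stood the glutamylases Ttll6 and Ttll9, enzymes of cilia, at 0.161 ± 0.0163 and 0.698 ± 0.0671 CPM per kb, and the deglutamylase Agbl2 at 0.195 ± 0.086. Ttll6 and Agbl2 rested on 17 to 27 and 22 to 83 reads per control cortex, and their values are the least precise of the members. In the control striatum the CCT subunits again held the first 3 places.

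**Figure D1:**
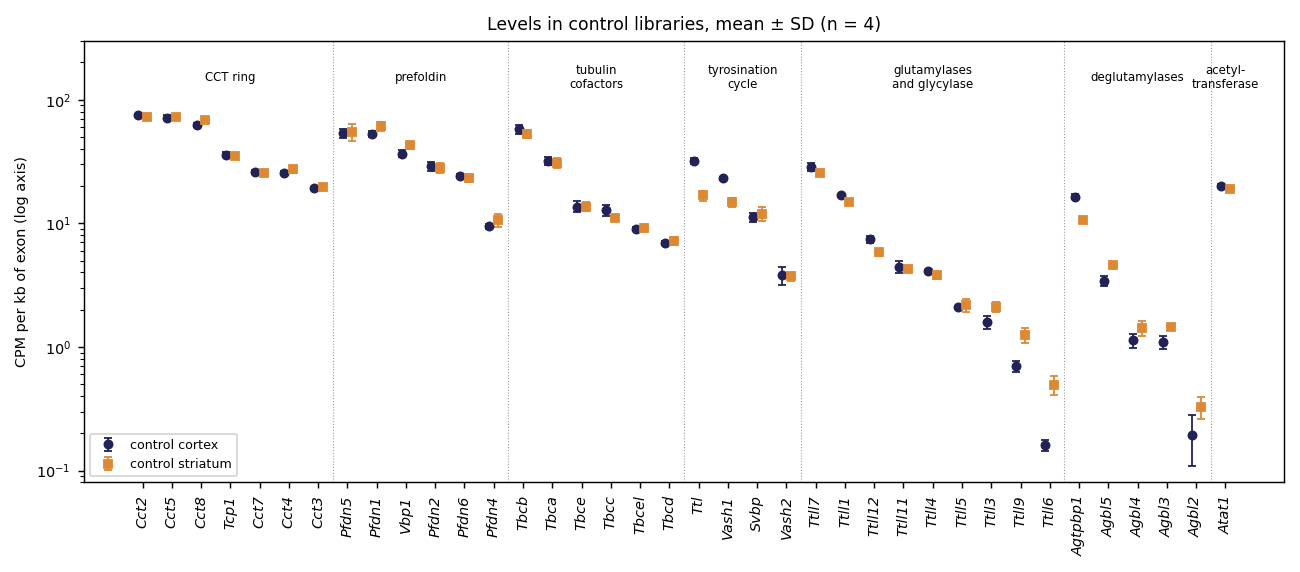
Levels of the 38 members in control libraries, in CPM per kilobase of exon on a log axis, as mean ± SD of 4 cortices (circles) and 4 striata (squares), grouped by class. The CCT subunits Cct2, Cct5 and Cct8 lie highest and Ttll6, Agbl2 and Ttll9 lowest, and Ttl, Vash1 and Agtpbp1 are lower in striatum than in cortex.

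Between the control tissues, 8 members were higher in the striatum and 5 lower by edgeR, beside 20.3% and 20.1% of all 18284 genes tested. Ttl in the striatum was at 0.523 of its cortical level (edgeR adjusted p = 9.16e-06), Vash1 at 0.645 (4.94e-05) and Agtpbp1 at 0.649 (1.46e-05). Ttll12 and Ttll1 differed by -0.34 and -0.17 on the log2 scale. The rises were led by the cilia-associated Ttll6, 3.08-fold higher (edgeR adjusted p = 6.45e-05), and Ttll9, 1.79-fold higher (0.000553). They also took in 3 deglutamylases, Agbl5 (log2 difference 0.44), Agbl3 (0.41) and Agbl4 (0.33), the glycylase Ttll3 (0.41) and the prefoldin subunits Vbp1 (0.23) and Pfdn1 (0.22). No CCT subunit and no cofactor was called. Markers of ependyma, whose cells bear motile cilia, were higher in the control striatum for 4 of 5 genes (summed level 37.3 to 39.7 against 20.4 to 25.1 CPM), none was at 0 in any library, and their part in the Ttll6 and Ttll9 values was not tested. Since 3 control mice gave both tissues, the test was repeated with the mouse as a block. Ttll1 and Agbl4 then lost their calls (adjusted p = 0.0891 and 0.227, edgeR), and the cofactor Tbcc and the glutamylase Ttll7 gained one, both lower in the striatum (0.0475 and 0.0324). Some calls also hung on single libraries. Pfdn1 gave adjusted p of 0.0549 to 0.0795 without the cortex of mouse 58 or 64 or the striatum of mouse 65, and Vbp1 gave 0.0564 without the cortex of mouse 58. Agbl4 gave 0.0755 to 0.135 without either tissue of mouse 58, the cortex of mouse 55 or 63 or the striatum of mouse 65, and Ttll1 gave 0.0623 to 0.0641 without the cortex of mouse 64 or the striatum of mouse 65. Agbl4 also lost its call with sex as covariate and in limma-voom, and Ttll1 with upper-quartile scaling and without a filter on low counts. Without the control cortices of mice 58 and 63 together 9 members were called, 8 of them among the 13, and without the control striata of mice 58 and 64 together 11 were, all among the 13.

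In Trrap-FBΔ tissue members of every class except prefoldin were called. In the cortex, 9 of 38 were lower and 6 higher than in controls at an edgeR adjusted p under 0.05, beside 17.6% and 15.7% of all 18268 genes tested. In the striatum 8 were lower and 6 higher, beside 15.8% and 14.4% of 18872 genes. In both tissues together 7 were lower and 6 higher, beside 10.5% and 8.47% of the 17938 genes tested in both. Lower in both were Ttl, Vash1, Atat1, Cct3, Cct4, Agtpbp1 and Ttll1, and higher in both were Agbl3, Agbl4, Agbl5, Ttll11, Tbce and Tbcel. The median log2 fold change of the 38 members was -0.04 in each tissue, against 0.00 and -0.01 over all genes tested. Log2 fold changes were below 0 for 23 of the 38 in the cortex and 26 in the striatum, beside 49.9% and 50.8% of all genes tested. Groups did not overlap for 13 members in the cortex and 14 in the striatum, beside 32.7% and 31.6% of all genes. In bulk tissue fewer cells of a type and less RNA per cell cannot be told apart, and this holds for all genotype values below. Without the control cortices of mice 58 and 63, 12 of the 15 cortical calls were made and no other, and without the control striata of mice 58 and 64, 9 of the 14 striatal calls and no other. The calls lost were Tbce, Agbl5 and Ttll12 in the cortex (adjusted p = 0.0569 to 0.0763, edgeR) and Tbcb, Tbce, Ttll1, Agbl4 and Atat1 in the striatum (0.0531 to 0.245).

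**Figure D2:**
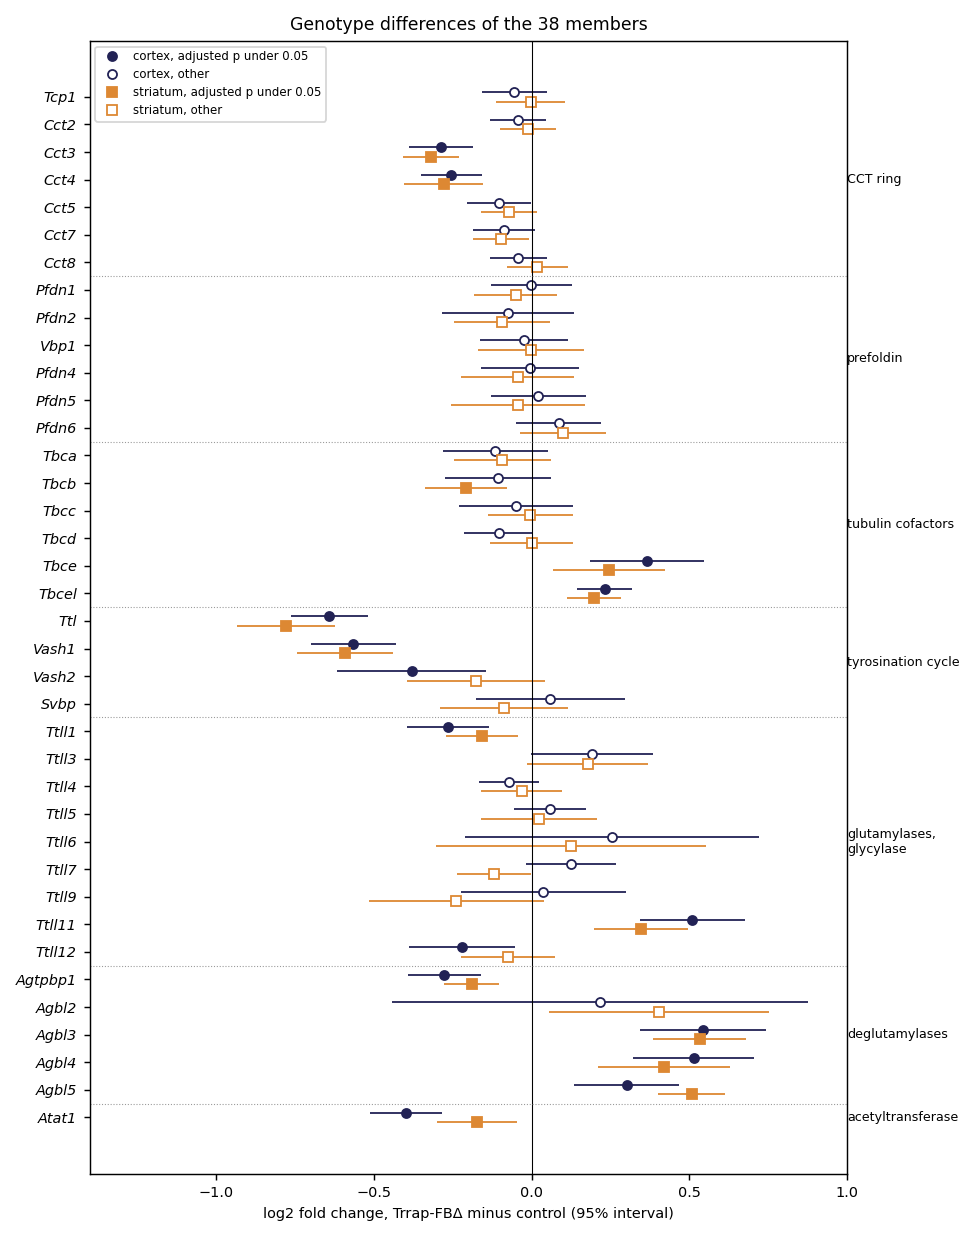
Log2 fold changes, Trrap-FBΔ minus control, of the 38 members in cortex (circles) and striatum (squares) with 95% intervals from the edgeR fit, grouped by class, with filled symbols for an adjusted p under 0.05. Ttl and Vash1 lie farthest to the left, at -0.64 and -0.56 in the cortex, Agbl3, Agbl4 and Ttll11 lie to the right at 0.51 to 0.54, and the 6 prefoldin subunits straddle 0.

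Cell types other than the targeted neurons also differed between the genotypes. In the Trrap-FBΔ cortex 5 of 5 oligodendrocyte, 3 of 3 oligodendrocyte precursor, 5 of 5 microglia and 4 of 4 endothelial markers were lower by edgeR, as were 4 of 5 immature neuron markers. Among controls, mice 58 and 63 had the highest summed oligodendrocyte level, 2830 and 2620 CPM, while mice 55 and 64, at 1820 and 1610 CPM, overlapped the Trrap-FBΔ cortices at 1200 to 1830 CPM. The summed level of the immature neuron markers was 1160 to 1430 CPM in control cortices and 649 to 817 CPM in Trrap-FBΔ cortices. Most of this fall came from 1 of these markers, Tubb3, which is itself a tubulin and went from a mean of 709 to 290.7 CPM. Dcx went from 345.3 to 243.7 CPM and Sox11 from 74.28 to 66.55 CPM. In the Trrap-FBΔ striatum no oligodendrocyte marker passed, but 2 of 3 precursor, 4 of 5 microglia, 1 of 4 endothelial and 2 of 5 immature neuron markers were lower. Cortical excitatory markers were lower for 1 of 5 genes in the cortex (sum 1550 to 1670 against 1370 to 1770 CPM) and for 4 of 5 in the striatum (189 to 295 against 290 to 508 CPM). Of 5 astrocyte markers 2 were higher and 2 lower in the cortex and 2 higher in the striatum, of 6 interneuron markers 1 cortical value was higher, as was 1 striatal value, with 1 lower there, of 5 ependymal markers 1 was lower in the cortex, and none of 3 choroid plexus or 7 striatal projection neuron markers passed in either tissue. No marker of any of these lists was at 0 in any library. The part of these shifts in the member values was not tested.

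In both tissues Ttl and Vash1, of the tyrosination cycle, had the largest differences of the 38 genes. Ttl, the ligase that restores the terminal tyrosine of α-tubulin, was at 199, 176, 197 and 194 CPM in the control cortices and at 129.7, 114, 121 and 127 CPM in the Trrap-FBΔ cortices. In the striatum it was at 95.7, 104, 111 and 89.5 CPM in controls and at 55.01, 58.1, 56.9 and 62.9 CPM in Trrap-FBΔ. All control values lay above all Trrap-FBΔ values within each tissue. Ttl RNA fell by 35.8% in the cortex (log2 fold change -0.64, 95% interval -0.76 to -0.52, edgeR adjusted p = 2.77e-05) and by 41.7% in the striatum (-0.78, -0.93 to -0.62, 0.000118). The lowest Trrap-FBΔ cortex still held more Ttl than the highest control striatum, as the levels in each library show.

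Vash1, the detyrosinating carboxypeptidase that acts opposite to Ttl, fell as well. It was at 63.1, 58.1, 59.5 and 59.4 CPM in the control cortices and at 41.3, 37.1, 38.9 and 45.0 CPM in the Trrap-FBΔ cortices, a log2 fold change of -0.56 (SE 0.06, edgeR adjusted p = 9.07e-05). In the striatum the values were 41.0, 40.3, 39.3 and 33.9 CPM in controls and 25.5, 25.0, 24.7 and 27.4 CPM in Trrap-FBΔ (-0.59, SE 0.07, 0.000369). The groups did not overlap in either tissue, and with Ttl it stayed past the threshold when tested against a fold change of 1.2. Its paralogue Vash2 was lower in the cortex (-0.38, edgeR adjusted p = 0.0194), with control values of 19.7, 16.9, 13.0 and 15.9 CPM against 11.5, 13.0, 12.6 and 13.1 CPM, but mouse 63 overlapped the Trrap-FBΔ group and without the Trrap-FBΔ cortex of mouse 57 the adjusted p was 0.053. In the striatum Vash2 differed by -0.18 (0.204). Svbp, the small partner that vasohibins need for their activity, gave 0.06 in the cortex and -0.09 in the striatum (adjusted p = 0.703 and 0.496), with 95% intervals of -0.18 to 0.30 and -0.29 to 0.11. The ligase and the carboxypeptidase of the cycle thus both fell in both tissues, and the summed level of the 4 genes was 279.8 ± 13.2 (SD, n = 4) CPM in control and 188 ± 11.5 CPM in Trrap-FBΔ cortices. Ttl, which acts against the vasohibins, made up most of this sum, with means of 191.4 and 122.8 CPM.

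**Figure D3:**
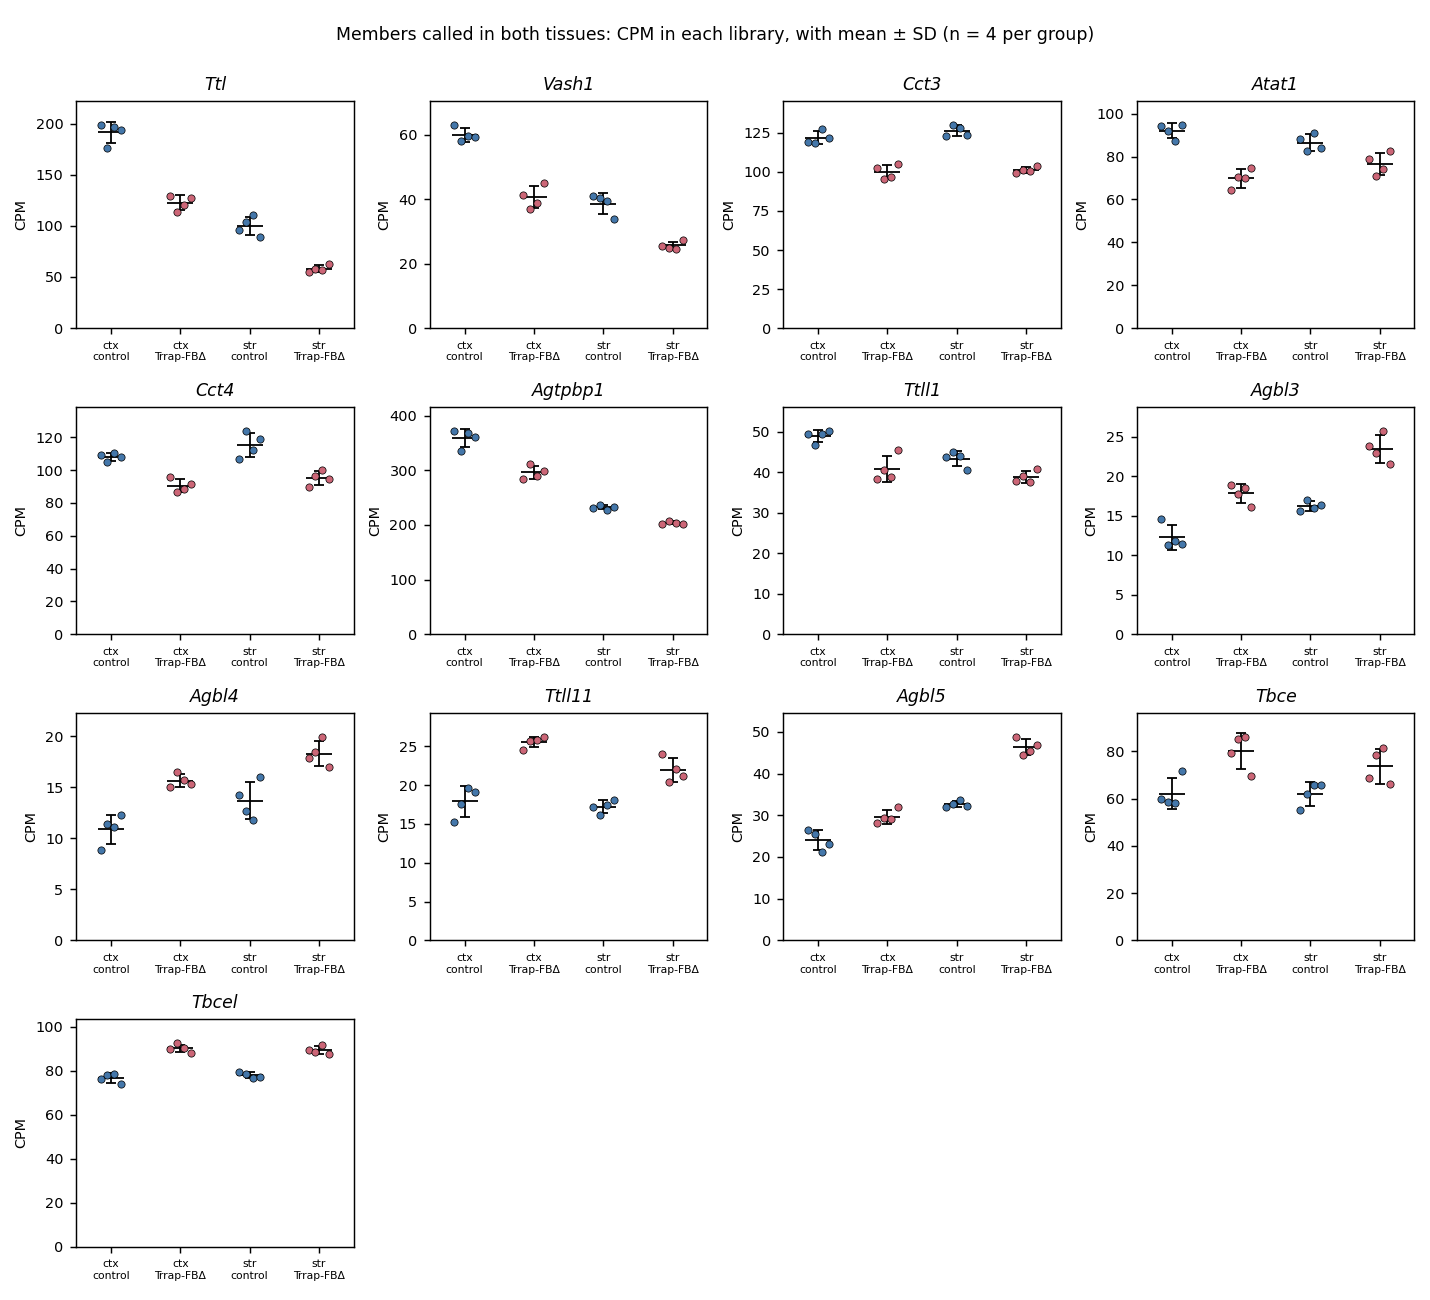
CPM in each library (points) with mean ± SD of 4 libraries (bars) for the 13 members called in both tissues, in control (blue) and Trrap-FBΔ (red) cortex (ctx) and striatum (str). Ttl and Vash1 have the largest log2 fold changes of these members in both tissues, and the groups touch or overlap for Tbce in the cortex and for Atat1 and Ttll1 in the striatum.

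The start regions of Ttl, Vash1 and Agbl3 are shown because these are the members called in both tissues with the largest mean change, and because the study followed Trrap to the factor Sp1, which binds GC boxes. Each line gives the 250 bases before the RefSeq start on the gene's strand in GRCm38.p6, in lower case with every GC box (GGGCGG, or CCGCCC for the other strand) in capitals. Ttl lies at chr2:129065697-129065946, Vash1 at chr12:86678450-86678699 and Agbl3 at chr6:34780182-34780431, each on the plus strand.
Ttl: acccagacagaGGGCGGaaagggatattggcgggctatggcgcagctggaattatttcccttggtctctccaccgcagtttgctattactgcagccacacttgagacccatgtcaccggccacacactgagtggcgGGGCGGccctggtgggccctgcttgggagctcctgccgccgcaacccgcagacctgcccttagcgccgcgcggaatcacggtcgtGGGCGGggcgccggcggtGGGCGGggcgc
Vash1: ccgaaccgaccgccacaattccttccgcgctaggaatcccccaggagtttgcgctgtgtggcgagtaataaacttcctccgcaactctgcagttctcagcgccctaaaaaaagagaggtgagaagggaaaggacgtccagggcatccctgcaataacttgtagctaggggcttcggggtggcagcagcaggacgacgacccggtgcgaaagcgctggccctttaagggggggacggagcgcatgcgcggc
Agbl3: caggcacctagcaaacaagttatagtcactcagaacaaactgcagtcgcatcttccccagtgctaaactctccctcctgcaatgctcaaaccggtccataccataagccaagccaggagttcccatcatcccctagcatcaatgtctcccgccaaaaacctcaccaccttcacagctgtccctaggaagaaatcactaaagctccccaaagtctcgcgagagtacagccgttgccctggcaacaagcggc
Ttl has 4 GC boxes, all on the gene's own strand, and the last pair lies close to the start. Vash1, which fell nearly as far, and Agbl3, which rose, have none in this window. RefSeq windows were found for 34 of the 38 members, and 19 of the 34 (55.9%) held a GC box, against 56.6% of the windows of 12698 genes tested in both tissues. Of the members lower in both tissues 4 of 5 with a window held one, led by Agtpbp1 with 8 copies in a window 27880 bases from the annotated gene start, and of the members higher in both tissues 0 of 5 did, though the window of 1 of these, Tbcel, lies 35571 bases from the annotated start. These are matches of letters in a short window and not measured sites, and the counts are too small for any reading.

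The deglutamylases moved in opposite directions. Agtpbp1, the main remover of glutamate chains in neurons, was at 372, 334, 368 and 362 CPM in the control cortices and at 284, 312, 290.1 and 299 CPM in the Trrap-FBΔ cortices. In the striatum it was at 231, 237, 228 and 233 CPM in controls and at 201, 208, 204 and 202 CPM in Trrap-FBΔ. It fell without overlap in both tissues, by 0.28 in the cortex (95% interval -0.39 to -0.16, edgeR adjusted p = 0.00229) and by 0.19 in the striatum (-0.28 to -0.10, 0.00565) on the log2 scale. Against this, 3 of the 4 Agbl genes on the list rose in both tissues. Agbl3, which shortens long glutamate chains, went from 14.6, 11.3, 11.9 and 11.4 to 18.9, 17.8, 18.5 and 16.1 CPM in cortices, and in striata from 15.6, 17, 16.0 and 16.3 to 23.8, 22.9, 25.7 and 21.5 CPM. The log2 fold changes were 0.54 and 0.53 (edgeR adjusted p = 0.00115 and 0.000457), a rise of 45.6% and 44.7%.

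Agbl4, a further chain-shortening enzyme, went from 8.88, 11.4, 11.1 and 12.2 to 15, 16.4, 15.7 and 15.3 CPM in the cortex (log2 fold change 0.51, edgeR adjusted p = 0.00126). Its striatal values went from 14.2, 12.7, 11.8 and 16.0 to 17.9, 18.4, 19.9 and 17 CPM (0.42, 0.00848), and without the control striata of mice 58 and 64 the adjusted p was 0.0533. Agbl5, which removes the branch point glutamate, went from 26.5, 25.5, 21.3 and 23.2 to 28.2, 29.4, 29.1 and 32.1 CPM in cortices (0.30, 0.0102), and in striata from 32.0, 32.7, 33.6 and 32.2 to 48.7, 44.4, 45.4 and 46.8 CPM (0.51, 0.000155). All Trrap-FBΔ values of both genes lay above all control values of the same tissue, and without the control cortices of mice 58 and 63 Agbl5 gave an adjusted p of 0.0569 in the cortex. Agbl2 was measured at 0.568 to 3.17 CPM and was not called, with log2 fold changes of 0.22 (95% interval -0.44 to 0.88) and 0.40 (0.05 to 0.75). Because Agtpbp1 is far more abundant than the rest, the CPM summed over the 5 genes was 407.5 ± 16.3 (SD, n = 4) in control and 361 ± 12.8 in Trrap-FBΔ cortices, and 297 ± 4.38 and 295 ± 3.48 in the striata.

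Among the Ttll enzymes 3 of 9 cortical and 2 of 9 striatal values were called, beside 33.3% and 30.2% of all genes tested. Ttll11, a glutamylase that lengthens chains, went from 15.2, 17.6, 19.7 and 19.2 to 24.6, 25.7, 25.8 and 26.2 CPM in cortices, and in striata from 17.2, 16.1, 17.5 and 18.1 to 24.0, 20.4, 22.1 and 21.2 CPM. It rose without overlap by 0.51 and 0.35 on the log2 scale (edgeR adjusted p = 0.000577 and 0.0039). Ttll1, the catalytic subunit of the neuronal α-tubulin polyglutamylase complex, went the other way. It was at 49.3, 46.7, 49.5 and 50.1 CPM in the control and 38.3, 40.4, 38.8 and 45.3 CPM in the Trrap-FBΔ cortices (-0.26, 0.00588). In the striatum it was at 43.7, 45.0, 43.9 and 40.6 against 37.9, 39.0, 37.6 and 40.8 CPM (-0.16, 0.0401), with an overlap of 1 library on either side. The striatal call was lost without any 1 of 6 libraries, the control striata of mice 58, 63 and 64 and the Trrap-FBΔ striata of mice 57, 59 and 60 (adjusted p = 0.0651 to 0.104). It was also lost with upper-quartile scaling and without a filter on low counts.

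Ttll12, a family member whose enzymatic role is less settled, was lower in the cortex, with 28.8, 29.6, 28.4 and 33.0 CPM in controls and 23.3, 25.1, 25.2 and 29.3 CPM in Trrap-FBΔ (log2 fold change -0.22, edgeR adjusted p = 0.0446). The groups overlapped, and the call was lost without any 1 of 6 cortices, those of control mice 55, 58 and 64 and Trrap-FBΔ mice 57, 59 and 60 (0.0518 to 0.131). Ttll12 also lost this call with sex as covariate and with upper-quartile scaling. In the striatum it differed by -0.07 (0.433). The most abundant glutamylase of the family, Ttll7, which acts on β-tubulin, gave 0.13 in the cortex and -0.12 in the striatum (adjusted p = 0.156 and 0.11). The other 5, Ttll3, Ttll4, Ttll5, Ttll6 and Ttll9, were not called in either tissue, with log2 fold changes between -0.24 and 0.26. The glycylase Ttll3 shares 283 bases of exon with Arpc4 on the same strand, and 4.35% of its 51-base words occur in other transcripts, so its counts are less certain than those of the rest.

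Atat1, the α-tubulin acetyltransferase, was at 94.2, 91.9, 87.1 and 94.8 CPM in the control cortices and at 64.3, 70.4, 69.9 and 74.9 CPM in the Trrap-FBΔ cortices. It fell by 24.1% there with no overlap (log2 fold change -0.40, 95% interval -0.51 to -0.28, edgeR adjusted p = 0.000244). In the striatum it was at 88.1, 82.4, 91.0 and 84.0 CPM in controls and at 78.7, 70.7, 74.2 and 82.8 CPM in Trrap-FBΔ (-0.17, -0.30 to -0.05, 0.0433). The Trrap-FBΔ striatum of mouse 61 lay above the control of mouse 63, and the striatal call was lost without any 1 of 6 libraries, the control striata of mice 58, 64 and 65 and the Trrap-FBΔ striata of mice 57, 59 and 60 (adjusted p = 0.053 to 0.118). It was also lost with sex as covariate, with upper-quartile scaling and without a filter on low counts. Of the deacetylases that act against Atat1, Hdac6 was lower in the cortex (-0.19, 0.0178) and Sirt2 was not called in either tissue.

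Of the 7 CCT subunits on the list 2 were lower, the same pair in both tissues, and the median log2 fold change over these 7 was -0.09 for cortex, and for striatum -0.07. Cct3 was at 119, 118, 128 and 122 CPM in the control and 102, 95.3, 96.7 and 105 CPM in the Trrap-FBΔ cortices, and at 123, 130.1, 128 and 124 against 99.2, 101, 101 and 104 CPM in the striata. It fell by 18% and 19.8% (log2 fold change -0.29 and -0.32, edgeR adjusted p = 0.000876 and 0.000475). Cct4 was at 109, 105, 110.4 and 108 against 95.7, 86.4, 88.5 and 91.7 CPM in the cortices and at 107, 124, 112 and 119 against 89.6, 96.1, 100.1 and 94.4 CPM in the striata. It fell by 16.2% and 17.6% (-0.25 and -0.28, 0.00132 and 0.00485). Neither gene overlapped between genotypes in either tissue. The other 5 subunits, Tcp1, Cct2, Cct5, Cct7 and Cct8, lay between -0.10 and 0.02 in both tissues and were not called, with 95% intervals that reached no lower than -0.21. In the striatum all Trrap-FBΔ values of Cct5 and Cct7 still lay below all control values. Unadjusted edgeR p was under 0.05 for Cct5 in the cortex (0.0454) and Cct7 in the striatum (0.0347). Cct3 and Cct4 kept their calls under each normalization, filter and tool tried and without any 1 library, but not when tested against a fold change of 1.2.

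The 6 prefoldin subunits were not called in either tissue, and 0 of 6 reached even an unadjusted p of 0.05 in edgeR. Their log2 fold changes ran from -0.07 to 0.09 in the cortex and from -0.09 to 0.10 in the striatum. Pfdn6 had the largest mean change, with 29.4, 28.3, 29.9 and 27.3 CPM in the control and 32.8, 28.3, 29.8 and 31.0 CPM in the Trrap-FBΔ cortices, and the groups overlapped. Their summed level was 320 ± 13.5 (SD, n = 4) CPM in control and 319 ± 20.8 CPM in Trrap-FBΔ cortices, and 345 ± 31.8 and 338 ± 11.8 CPM in the striata. Pfdn5 and Pfdn6 share 17.6% and 4.9% of their 51-base words with other transcripts, mostly Gm5644 and Gm13612, and the authors counted only uniquely mapped reads. Pfdn5 also shares 165 bases of exon with Myg1 on the same strand.

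Of the tubulin cofactors 2 rose in both tissues. Tbce, which binds α-tubulin in the dimer-forming complex, went from 59.9, 58.4, 58.2 and 71.7 to 79.4, 85.4, 86.0 and 69.4 CPM in the cortex (log2 fold change 0.37, edgeR adjusted p = 0.00572). Striatal values went from 54.97, 61.8, 65.7 and 65.8 to 68.6, 78.4, 81.3 and 66.1 CPM (0.25, 0.0418). The Trrap-FBΔ cortex of mouse 61 lay below the control of mouse 64, and in both Trrap-FBΔ tissues mouse 61 held the lowest value. The striatal call was lost without the control striatum of mouse 58 or 63 or the Trrap-FBΔ striatum of mouse 59 or 60 (0.0684 to 0.115), and the cortical one without the control cortices of mice 58 and 63 together (0.0683). Tbcel, a relative of Tbce that takes tubulin dimers apart, was steadier, with 76.0, 78.2, 78.6 and 73.9 against 89.7, 92.4, 90.1 and 88.1 CPM in the cortices and 79.6, 78.5, 76.6 and 77.2 against 89.6, 88.5, 91.6 and 87.7 CPM in the striata. It rose by 17.4% and 14.6% without overlap (0.23 and 0.20, 0.00132 and 0.00408).

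Tbcb, which first receives α-tubulin, was lower in the striatum, at 75.7, 85.1, 74.4 and 72.1 CPM in controls and 65.1, 64.2, 66.4 and 70.3 CPM in Trrap-FBΔ (log2 fold change -0.21, edgeR adjusted p = 0.0226). Without the Trrap-FBΔ striatum of mouse 57, 59 or 60 the adjusted p was 0.0536 to 0.0659, and in the cortex Tbcb differed by -0.11 (0.319). Tbca, Tbcc and Tbcd, which hold β-tubulin and trigger release of the dimer, were not called, and the value farthest from 0 was -0.11, for Tbca in the cortex. Of Tbca's 51-base words 15.7% occur elsewhere, mostly in Gm6142. Arl2, the small GTPase that works with Tbcd and Tbce, was the regulator that rose most, from 29.4 ± 1.48 (SD, n = 4) to 35.6 ± 2.14 CPM in cortices, while striata went from 34.3 ± 1.57 to 45.6 ± 1.75 CPM (0.27 and 0.41, 0.00533 and 0.000526).

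The genes of the substrate, tubulin itself, were compared as well. Of 12 α- and β-tubulin genes, the Trrap-FBΔ cortex had 10 lower and 1 higher, the striatum 9 lower and 1 higher, with median log2 fold changes of -0.69 and -0.49. Tubb5 led the falls at -1.35 and -1.15 (edgeR adjusted p = 5.48e-06 and 5.39e-05), with Tubb3, the neuronal β-tubulin, at -1.29 and -0.996, and Tubb2b at -1.03 in the cortex and Tuba1a at -0.81 in the striatum. Tuba8 was higher, at 0.59 and 0.79 (0.0213 and 0.00158). Tuba1a, Tuba1b and Tuba1c are nearly identical in coding sequence, so uniquely mapped counts of each are uncertain. Summed over the 12 genes, tubulin RNA was at 4632 ± 164 (SD, n = 4) CPM in control and 2557 ± 253 CPM in Trrap-FBΔ cortices, and at 3410.0 ± 192 and 2086 ± 166 CPM in the striata. The 7 CCT subunits summed to 1170.0 ± 34.7 and 1090.0 ± 22 CPM in the cortices and to 1190.0 ± 22.3 and 1125 ± 16.6 CPM in the striata. These CCT sums did not overlap between genotypes either, at 1128 to 1213 against 1070 to 1110 CPM in the cortices and 1166 to 1214 against 1102 to 1142 CPM in the striata. The tubulin sum per CCT sum was thus 3.68 to 4.12 in control and 2.19 to 2.64 in Trrap-FBΔ cortices, and 2.67 to 3.10 and 1.72 to 2.07 in the striata, with no overlap between genotypes.

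**Figure D4:**
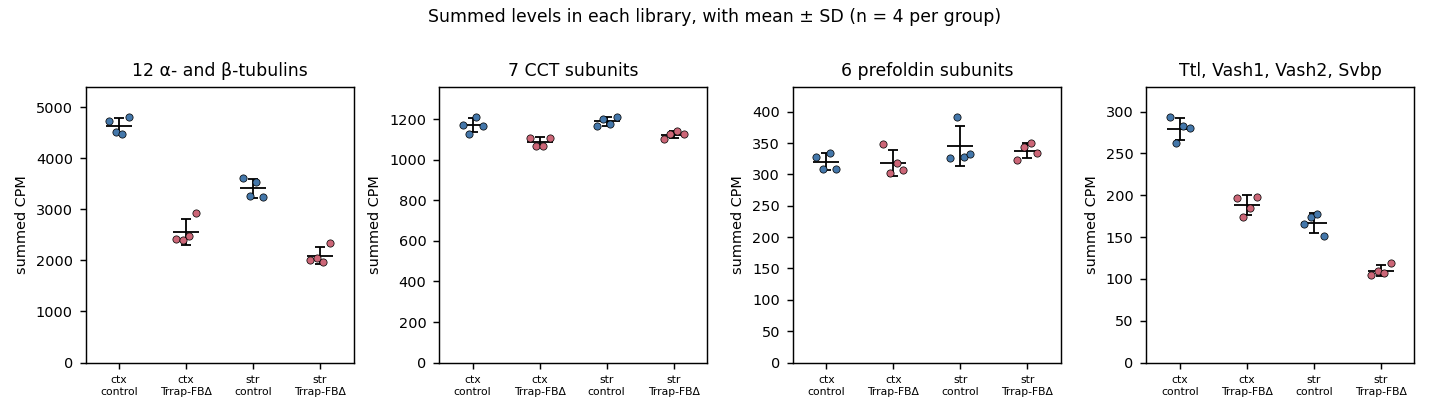
Summed CPM in each library (points) with mean ± SD of 4 libraries (bars) for 12 α- and β-tubulins, 7 CCT subunits, 6 prefoldin subunits and the 4 proteins of the tyrosination cycle, in control (blue) and Trrap-FBΔ (red) cortex (ctx) and striatum (str). The tubulin sum falls from 4632 to 2557 CPM in the cortex while the CCT sum goes from 1170.0 to 1090.0 CPM and the prefoldin sums overlap.

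Genes that work with the modifying enzymes were also compared. Of 9 partners and regulators, the Trrap-FBΔ cortex had 1 higher and 2 lower, the striatum 2 higher and 1 lower. Over all genes tested, 33.3% were called in the cortex and 30.2% in the striatum. Besides Arl2 and Hdac6 these were subunits of the polyglutamylase complex that carries Ttll1. Nicn1 was lower in the cortex (log2 fold change -0.23, edgeR adjusted p = 0.00324). In the striatum Tpgs2 was lower (-0.20, 0.00916) and Tpgs1 higher (0.26, 0.0198), so the called genes of the complex did not all move the same way. The cortical means of Tpgs2 and Tpgs1 went in the same directions, from 79.67 to 73.86 and from 28.23 to 32.72 CPM. Of the 9 genes 0 were called for a genotype effect that differs between the tissues. Of 10 motors, end-binding proteins and severing enzymes known to depend on tubulin tails, 2 rose and 3 fell in cortices, against 2 and 2 in striata. Clip2, a plus-end protein that prefers tyrosinated tubulin, fell from 177 ± 7.84 (SD, n = 4) to 136 ± 8.53 CPM in cortices, and striata went from 113 ± 11.7 to 89.9 ± 3.75 CPM (-0.38 and -0.33, 0.000351 and 0.00628). The kinesin heavy chain Kif5a fell by 0.34 and 0.21 on the log2 scale (0.00147 and 0.0384). The catalytic katanin subunit Katna1 rose in the striatum (0.24, 0.0271), and Kif5b rose in the cortex (0.20, 0.0217).

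A fit of all 16 libraries with a genotype-by-tissue term asked whether the genotype effect depended on the tissue. None of the 38 members passed in edgeR, and none did in DESeq2 or limma-voom, beside 0.437% of 19438 genes in edgeR. At an unadjusted p under 0.05 there were 3. The effect on Ttll7 was lower in the striatum than in the cortex by 0.25 on the log2 scale (SE 0.09, edgeR adjusted p = 0.228), and that on Atat1 and Agbl5 higher by 0.22 (SE 0.08, 0.229) and 0.20 (SE 0.09, 0.358). For Ttl the difference was -0.14 with a 95% interval of -0.33 to 0.06, and for Vash1 it was -0.03 with an interval of -0.23 to 0.17. The calls made in 1 tissue only, Vash2 and Ttll12 in the cortex and Tbcb in the striatum, therefore do not show a difference between tissues (0.20, 0.15 and -0.10, adjusted p = 0.657, 0.63 and 0.747).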

How the data were processed

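RNA was sequenced as single-end 51-base reads with a strand-specific mRNA kit. Per the submitters' notes and the study's methods, the authors aligned reads to GRCm38 with STAR 2.5.4b and counted uniquely mapped reads per gene with featureCounts 1.5.0, by strand. The deposited values are raw counts per gene for 16 libraries, and no column was left unused (0). Counts were tested with edgeR 4.0.16 in R 4.3.3 (quasi-likelihood test, TMM, filterByExpr, Benjamini-Hochberg over all genes tested, threshold 0.05), per tissue for genotype, in controls for tissue and over all libraries for the interaction. DESeq2 1.42.0 and limma 3.58.1 (voom) served as alternatives, as did other scalings, filters, sex as covariate, a fold of 1.2 and leaving out each library. Replicates were taken as mice, from the number in each title, and same-numbered libraries as the 2 tissues of 1 mouse. Their deviations correlated at 0.0901 to 0.535 over 7 mice (median 0.353). Over 57 pairs of differently numbered libraries the range was -0.437 to 0.33 (median -0.0485), so the ranges overlapped. Genotypes share no mouse, so the mouse entered as a block only in the tissue and interaction fits. Intervals are 95% intervals of the edgeR fit. Scripts were tested on simulated data.

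The members and gene lists were chosen with earlier results of these data known. Values per library are given for the members called in both tissues (up to 12, by mean absolute change), those called in 1 tissue, and the most changed of each class. Of related lists the called genes with the 3 largest changes per tissue are named. Ttll1, Ttll7, Tuba8, Sirt2 and Agbl2 were named outside this rule after their values were seen. Levels between genes are per kilobase of exon, and promoter sequences are from RefSeq.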

Additional observations from a re-analysis of the deposited data

Results flagged for a closer look

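In 5 of 152 groups of 4 libraries, 1 library lay apart from the other 3 by more of the group's range than Dixon's 95% critical value allows, and chance alone does this in about 1 of 20 groups. Tbce was at 71.7 CPM in the control cortex of mouse 64 and at 58.2 to 59.9 CPM in the others. Cct2 was at 180 CPM in the Trrap-FBΔ cortex of mouse 60 against 188 to 189 CPM, and Pfdn1 at 63.8 CPM in that of mouse 57 against 56.3 to 57 CPM. In the control striatum of mouse 63, Vbp1 was at 100 CPM against 86.8 to 89.1 CPM and Tbca at 28.4 CPM against 23.7 to 23.9 CPM.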

How the results depend on the processing

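In the main edgeR test 15 of 38 members were called in the cortex, 14 in the striatum and 13 between control tissues. Of all genes tested, 33.3%, 30.2% and 40.4% were called there. Tested against a fold change of 1.2, 6 members were called in the cortex, 4 in the striatum and 6 between control tissues. Without the control striata of mice 58 and 64, an alternative chosen after seeing the data, 9 were called in the striatum. With these alternatives fewer libraries or only larger changes could pass. Other scalings, filters, tools and sex as covariate gave 14 to 15 calls in the cortex, 12 to 15 in the striatum and 12 to 16 between control tissues. Leaving out each library in turn gave 13 to 16, 10 to 14 and 10 to 14. For the alternatives above, the share of all genes called is not given. The member counts therefore do not show whether members moved with all genes. No called member changed direction under any alternative run. With the mouse as replicate block 13 members were called between control tissues, 11 of them also without it, and 0 for the interaction, which gave 0 in each alternative. Over all genes the interaction gave 85 calls in edgeR, 430 in DESeq2, 195 without a filter, 219 with the block, 27 without the control striata of mice 58 and 64 and 1 against a fold of 1.2. It also hung on single libraries, from 18 without the Trrap-FBΔ striatum of mouse 61 to 151 without the control striatum of mouse 65, and fell to 22 to 55 without the Trrap-FBΔ striatum of mouse 57 or 59, the control striatum of mouse 63, the Trrap-FBΔ cortex of mouse 57, 59 or 60 or the control cortex of mouse 55 or 58. Ttll6 and Agbl2, with few reads, are limited by depth.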
